A study of Homo sapiens with 9 samples.

Results

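Cells treated with either MS172 or PK9328 were compared with cells given vehicle, and the genes described here are those that moved to the same side of vehicle with both compounds. A gene belongs to this shared response if its counts scaled to library size (CPM) in all 6 treated libraries lay above, or all 6 below, those in all 3 libraries of the vehicle dimethyl sulfoxide (DMSO). Of 13914 genes tested, 928 met this rule (6.67%), 521 higher (3.74%) and 407 lower (2.93%) than DMSO. Among them, 635 also had an adjusted p under 0.05 in the contrast of the mean of both compounds against DMSO (edgeR quasi-likelihood test, Benjamini-Hochberg adjustment over all genes tested), 398 higher and 237 lower. These are 4.56%, 2.86% and 1.7% of the genes tested. They are said to rise or fall below, and the other 293 are named only with their values. Over all genes tested, that contrast called 12.1%, 6.87% higher and 5.21% lower. The separation and the contrast rest on the same values, so the p-values of members give the size of a change against the spread between libraries and are no independent support.

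Several stress and metabolic programmes recur among the members. In the integrated stress response, phosphorylation of the initiation factor eIF2 lowers general translation and lets the transcription factor ATF4 be made, which raises genes of amino acid synthesis, amino acid uptake and tRNA charging. Cholesterol synthesis is controlled by SREBP transcription factors, which INSIG proteins hold in the endoplasmic reticulum when sterols are plentiful. Tubulin mRNAs are unusual in that their stability responds to the amount of unassembled tubulin in the cytosol.

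The libraries came from BxPC3, a human pancreatic adenocarcinoma line, whose genotype label is p53Y220C/-, shared by treated and vehicle cells alike. There were 3 poly(A)-selected libraries each for DMSO, MS172 and PK9328. PK9328 is known as a ligand of that mutant p53 protein, and the series design asks about MS172 against DMSO. The protocol gives 5 µM and 6 h, but names PK9328 and MS78, so dose and time of MS172 rest on a protocol with another compound name. Nothing in the labels says whether replicates were separate cultures, and p-values therefore measure only the spread between these libraries, which may be technical. Both compounds were set against the same 3 DMSO libraries, so an error in those moves both comparisons alike, and the values of each compound are given side by side.

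The libraries held between 24077353 and 28031886 estimated reads, and the common biological coefficient of variation was 0.044. Mean fragment length was 249.8 to 263.2 bases in the PK9328 libraries, 274.4 to 293.1 with MS172 and 281.5 to 289.4 with DMSO. With fragment length as a covariate, 222 of the 398 rising and 71 of the 237 falling members also had an adjusted p under 0.05 in the same direction. The part of fragment length in any single result was not tested beyond that fit. The fit itself cannot settle it, because the PK9328 range of lengths did not overlap the ranges of the other groups. Length and the effect of PK9328 were thus largely tied together. A call lost with the covariate, here and below, is therefore no verdict on that gene. Of 26 ductal and epithelial markers, 8 reached 1 TPM, a level scaled to transcript length and library size, in some library, among them KRT8 and KRT18, whereas EPCAM (at most 0.211 TPM) and CDH1 (at most 0.0639 TPM) did not, so the cell type is given as labelled. Their summed level was 1810 to 1910 TPM with DMSO, 1930 to 2030 with MS172 and 1720 to 1750 with PK9328. The sum of 21 mesenchymal and fibroblast markers was 7470 to 7870 TPM with DMSO, 7170 to 7600 with MS172 and 6570 to 6930 with PK9328, and the part of these shifts in the results was not tested. No endothelial marker of 8 and no acinar or endocrine marker of 11 reached 1 TPM, and 2 of 13 leukocyte markers did.

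Most shared changes were small. In bulk RNA, fewer cells carrying an mRNA and less of it per cell cannot be told apart. The median log2 fold change of the pooled contrast was 0.24 among the 398 genes that rose and -0.21 among the 237 that fell, beside -0.01 over all genes tested. Changes over 1.5-fold were seen in 34 rising and 21 falling members (0.338% and 0.395% of all genes tested had a call of that size in each direction). The largest rises among coding genes of at least 5 CPM were those of INSIG1, CXCL8, MSMO1, GDF15, HMGCS1, INHBE, IDI1, ATF3, CKS2, HMOX1, TXNRD1 and HBEGF. The largest falls were those of C4orf48, KLF2, ELF3, NDUFAF8, ID1, AMOTL2, SLC39A10, HES1, NRARP, TNFRSF1B, CAVIN2 and LFNG. The genes that fell had longer effective transcript lengths, which are transcript lengths corrected for fragment length. Their median was 3091 bases, against 2108 for those that rose and 2047 for all genes tested.

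The balance of the 2 directions depends on the scale. These counts use library sizes scaled by TMM, a correction for differences in composition. In CPM without that scaling, 353 genes lay above and 542 below all DMSO libraries, against 521 and 407 with it. The median gene then stood at -0.11 (log2) with MS172 and 0.03 with PK9328, beside -0.02 and 0.00 after TMM. Separated in TMM-scaled CPM, unscaled CPM and TPM alike were 147 higher and 114 lower genes, of which 135 and 73 had an adjusted p under 0.05.

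The boundary of the rule runs through small differences. Just inside it on the higher side were MTF2, TMEM126B and ZFAND5. For MTF2, the highest DMSO library and the lowest treated library both stood at 39.2 CPM. Just outside were ENO2, PRNP and TBC1D15, and for ENO2 the highest DMSO and lowest treated values were both 99.6 CPM. On the lower side, CYP2U1, HACD3 and POLD3 lay just inside, and HERC1, MCM3 and RBMS1 just outside. CYP2U1 had a lowest DMSO and a highest treated value of 15.1 CPM each, and RBMS1 of 39.5 CPM each. A gene's place on either side of the rule at this margin is a matter of a fraction of a CPM.

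The rule fixes that both compounds moved a member the same way, but not by how much, so their difference was tested. MS172 and PK9328 differed at an adjusted p under 0.05 (edgeR) in 47.7% of all genes tested, 23.3% higher and 24.4% lower with MS172. Among the 928 members, the change was larger with MS172 in 218, larger with PK9328 in 60, and not called different in 650. Of the last, 270 of 345 higher and 203 of 305 lower members had a 95% interval for the difference within 0.25 on the log2 scale on either side of 0. With the fragment length covariate, 93 members were larger with MS172 and 8 with PK9328. These counts cannot tell a part of fragment length from a compound difference, since the lengths of MS172 and PK9328 libraries did not overlap.

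**Figure D1:**
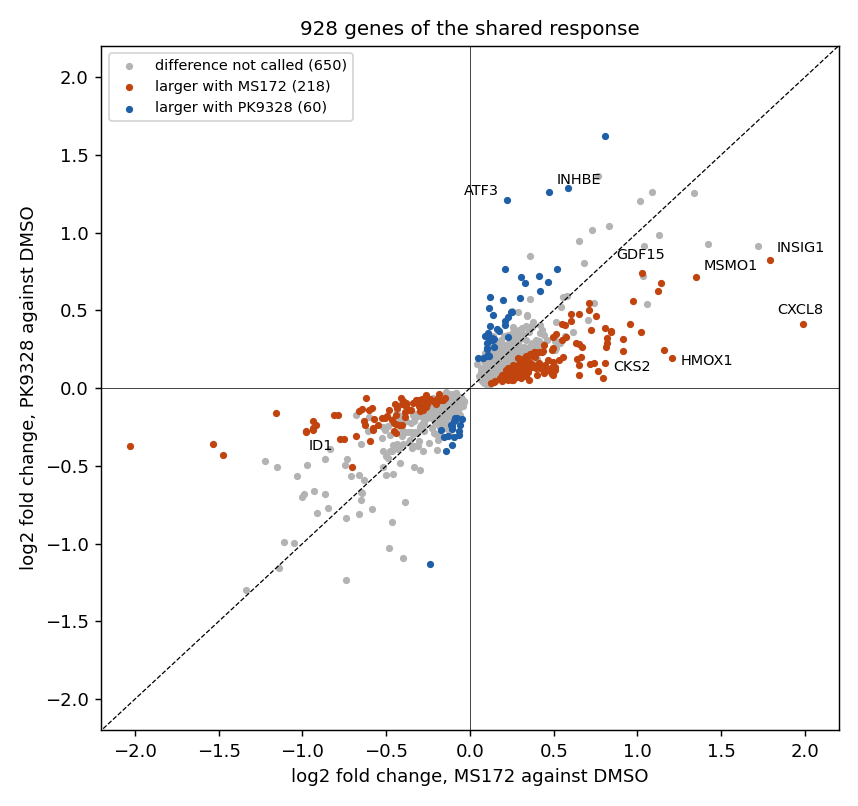
Each point is a gene of the shared response, placed by its log2 fold change with MS172 (horizontal) and PK9328 (vertical) against the same 3 DMSO libraries; the dashed line marks equal change and 7 genes lie beyond the axes. The 218 genes larger with MS172 spread along the horizontal axis, led by CXCL8 and INSIG1, and the 60 larger with PK9328 along the vertical axis, led among the named genes by INHBE and ATF3.

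Genes of the integrated stress response rose with both compounds, several of them further with PK9328. Of 26 tested ATF4 and CHOP targets, 13 were higher members and rose, and none was a lower member. The median of all 26 was 0.36 in the pooled contrast, 0.11 with MS172 and 0.53 with PK9328. The 13 were ATF4, ATF3, ATF5, TRIB3, CEBPB, CEBPG, ASNS, GDF15, CTH, KLHL24, SQSTM1, MAP1LC3B and CARS1. By the test of the difference, 6 of them were larger with PK9328, 4 with MS172 and 3 were not called. Separated in all 3 scales were 6 of the 13.

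TRIB3, a pseudokinase induced by ATF4 that dampens the pathway (chr20:362835-397559), stood at 139, 136 and 147 CPM with DMSO. It stood at 205, 199 and 202 with MS172 and at 245, 230 and 242 with PK9328. The 3 groups did not overlap, and PK9328 was highest. The pooled log2 fold change was 0.64 ± 0.03 (SE, edgeR adjusted p = 6.7e-15), and PK9328 exceeded MS172 by 0.24 (95% interval 0.17 to 0.32, adjusted p = 3.5e-06). ATF4 itself rose by 0.34 ± 0.03, with 0.22 for MS172 and 0.46 for PK9328. Its mRNA is only one level of its control, which acts mainly on translation.

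ATF3, a stress-induced repressor and activator of the same family, showed the widest gap between the compounds among the 13. It stood at 17.8, 17.7 and 18.8 CPM with DMSO, at 23.6, 19.8 and 19.7 with MS172, and at 41.3, 42.7 and 41.3 with PK9328. All treated libraries were above DMSO, but the MS172 libraries only just. The change was 0.22 with MS172 and 1.21 with PK9328, and the difference of 0.99 in favour of PK9328 (95% interval 0.85 to 1.12) had an edgeR adjusted p of 2.1e-13. INHBE, an activin subunit gene, differed in the same direction, with 0.47 and 1.26.

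GDF15, a secreted stress cytokine that both ATF4 and p53 pathways can raise, rose furthest among the 13. It stood at 158, 156 and 167 CPM with DMSO, at 324, 336 and 320 with MS172 and at 262, 270 and 270 with PK9328. No group overlapped another, and MS172 was highest. The pooled log2 fold change was 0.88 ± 0.03 (edgeR adjusted p = 6.6e-19), and MS172 exceeded PK9328 by 0.29 (adjusted p = 1.0e-07). ATF5, a related factor, likewise rose more with MS172 (0.71) than with PK9328 (0.50).

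DDIT3, which encodes CHOP, and its relatives in this list did not all belong to the shared response. DDIT3 stood at 51.8, 58.0 and 57.1 CPM with DMSO, 53.2, 49.7 and 44.0 with MS172, and 139, 130 and 145 with PK9328. The DMSO and MS172 libraries overlapped, and PK9328 lay above both. The pooled contrast called it at 0.56 although MS172 stood at -0.18 and PK9328 at 1.31. SESN2, a stress-induced regulator of growth signalling, had -0.07 and 0.88, and CHAC1, a glutathione-degrading enzyme, -0.62 and 0.87. These genes show why a call in the pooled contrast alone was not taken as shared: 1046 of its 1681 calls overlapped between treated and DMSO libraries.

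Some amino acid genes downstream of this pathway rose by small amounts with both compounds. Of 20 genes of serine, one-carbon, asparagine and proline synthesis, 8 were higher members and rose, and none was a lower member. They were PSAT1, SHMT2, MTHFD2, ASNS, PYCR1, GOT1, GPT2 and CTH, of which SHMT2 did not pass with the covariate (adjusted p = 0.31). Larger with PK9328 were 4 of them, and 1, PYCR1, was larger with MS172. CTH, which makes cysteine, rose by 0.49, with 0.21 for MS172 and 0.77 for PK9328. The pooled contrast called 10 of the 20 higher and 2 lower. The median of the whole list was 0.09, so the rise was not general. None of the 8 separated in TMM-scaled CPM, unscaled CPM and TPM alike, so their membership depended on the scale. PSAT1, a serine synthesis enzyme, stood at 188, 193 and 182 CPM with DMSO, 216, 219 and 224 with MS172 and 233, 237 and 235 with PK9328. Its libraries did not overlap between groups, and it rose by 0.28 ± 0.03 (edgeR adjusted p = 1.1e-07).

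Of 15 amino acid transporters, 6 rose as higher members, and the list's median was 0.23. In all 3 scales, 3 of the 6 separated. SLC7A5, the light chain of the leucine transporter, stood at 372, 366 and 375 CPM with DMSO, 469, 465 and 477 with MS172 and 489, 489 and 485 with PK9328. All treated libraries were well above DMSO, and the compounds lay close together. It rose by 0.37 ± 0.03 (edgeR adjusted p = 1.6e-10), and the interval of MS172 minus PK9328 ran from -0.12 to 0.02. SLC7A1, a carrier of arginine and lysine, was as even, with 0.29 and 0.31. SLC38A2 and SLC38A1, carriers of small neutral amino acids, were larger with MS172, and SLC1A5 and SLC1A4 with PK9328.

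Among the enzymes that load amino acids onto tRNA, 6 of 20 cytosolic genes rose, namely AARS1, CARS1, GARS1, SARS1, WARS1 and YARS1. GARS1 rose by 0.28 and 0.25 with MS172 and PK9328, WARS1 by 0.40 and 0.14, and CARS1 stood at 0.09 and 0.33. RARS1 was a lower member that did not pass the test, at -0.06. None of 17 mitochondrial synthetase genes was a higher member, and 2 fell, among them TARS2 by 0.13. With the fragment length covariate, no mitochondrial synthetase gene passed (TARS2 adjusted p = 0.15), nor did YARS1 (0.12).

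Promoter sequences were examined for the members because ATF4 with C/EBP partners binds a composite element. The core searched, TGATGNAA on either strand, was found within 250 bases before to 50 bases after the start in 14 of 321 rising coding members with a RefSeq promoter entry (4.36%). It was found in 161 of 9821 tested coding genes (1.64%) and in 3.67% of all 27305 promoters of the same length. In the list of ATF4 and CHOP targets, 3 of the 13 higher members held it (23.1%), beside 6 of the 23 tested genes with an entry (26.1%). The 14 rising members were ASNS, AARS1, IL21R, CARS1, SLC38A1, GOT1, KLHDC7B, SLC39A11, RSL24D1, SLC7A1, SRPRB, SCOC, ATF3 and NKX6-1. None of the 301 lower coding members with an entry held it, whether or not they passed the test. A match describes letters in this window and is not a site of binding. The stretches below show the element in 4 members that belong to amino acid metabolism, tRNA loading or the stress factors. They are RefSeq sequences on GRCh38.p14, each written 5′ to 3′ along the gene's strand, with the match in capitals, which read TTGCATCA where the element lies on the opposite strand. ASNS is shown from chr7:97872413-97872532 (minus strand), AARS1 from chr16:70289630-70289749 (minus), GOT1 from chr10:99430755-99430874 (minus) and ATF3 from chr1:212565160-212565279 (plus).
ASNS: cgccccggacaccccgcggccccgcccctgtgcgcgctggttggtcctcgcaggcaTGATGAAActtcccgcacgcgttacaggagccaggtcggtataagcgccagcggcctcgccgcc
AARS1: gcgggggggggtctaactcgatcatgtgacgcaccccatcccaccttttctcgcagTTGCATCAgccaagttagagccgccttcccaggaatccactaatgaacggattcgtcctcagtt
GOT1: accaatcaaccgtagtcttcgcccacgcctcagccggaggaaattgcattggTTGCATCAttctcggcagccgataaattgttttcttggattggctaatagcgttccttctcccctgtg
ATF3: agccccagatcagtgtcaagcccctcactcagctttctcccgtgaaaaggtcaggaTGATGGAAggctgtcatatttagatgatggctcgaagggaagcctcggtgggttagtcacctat

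ASNS, whose element is shown above, stood at 182, 170 and 179 CPM with DMSO, 190, 198 and 196 with MS172 and 199, 200 and 198 with PK9328. The treated libraries all lay above DMSO, the lowest by a small step, and the rise was 0.16 ± 0.03 (edgeR adjusted p = 9.4e-04). GOT1, the cytosolic aspartate aminotransferase, rose by 0.26 ± 0.04, with 0.23 and 0.29. AARS1 rose by 0.23 with MS172 and 0.13 with PK9328. The 4 genes whose stretches are shown thus ranged from 0.16 to 0.72 in the pooled contrast.

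The unfolded protein response raises chaperones when proteins misfold in the endoplasmic reticulum, and only part of its gene list was shared. Of 29 genes, 5 rose as higher members (HSPA5, DNAJB11, XBP1, EIF2AK3 and SELENOK), HYOU1 was a higher member that did not pass the test, and the median was 0.06. HSPA5, the main chaperone of that compartment, stood at 1640, 1640 and 1690 CPM with DMSO, 1820, 1810 and 1740 with MS172 and 2410, 2350 and 2350 with PK9328. MS172 lay a little above DMSO and PK9328 far above, and the difference was 0.40 (95% interval 0.33 to 0.48, edgeR adjusted p = 4.6e-10). XBP1, a transcription factor of the response, rose by 0.25 and 0.49. EIF2AK3, the sensor kinase PERK, was larger with MS172 (0.75 against 0.46), as was the co-chaperone gene DNAJB11, whose adjusted p with the covariate was 0.10.

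HSPA5 and XBP1 were also the members whose promoter window held the endoplasmic reticulum stress element, CCAAT and CCACG spaced by 9 bases. Of the tested coding genes with an entry, 14 of 9821 held it (0.143%). In the unfolded protein response list, 2 of the 6 higher members held it, beside 7 of the 27 tested genes with an entry. The element thus marks the list rather than its members alone. Its letters are in capitals in the stretches from chr9:125241344-125241463 and chr22:28800570-28800689, both on the minus strand, shown because these 2 genes are the chaperone and the factor named above.
HSPA5: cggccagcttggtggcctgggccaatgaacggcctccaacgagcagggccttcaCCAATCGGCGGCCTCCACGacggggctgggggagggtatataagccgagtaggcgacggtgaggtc
XBP1: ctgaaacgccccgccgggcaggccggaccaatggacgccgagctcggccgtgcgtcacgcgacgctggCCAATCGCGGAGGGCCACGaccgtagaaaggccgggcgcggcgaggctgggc

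Cholesterol genes were the list with the most members. Of 31 genes tested, 16 rose as higher members and 1 fell, with a median of 0.26 over the list. The change was larger with MS172 in 14 members and larger with PK9328 in none. Of its 17 higher members, 15 also separated in all 3 scales.

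INSIG1, the sterol-regulated anchor of SREBP (chr7:155297776-155310235), had the largest rise among coding members of at least 5 CPM. It stood at 50.8, 55.3 and 53.8 CPM with DMSO, 190, 177 and 186 with MS172 and 93.0, 96.4 and 94.1 with PK9328. No 2 groups overlapped. The pooled log2 fold change was 1.31 ± 0.04 (edgeR adjusted p = 2.8e-21), made of 1.79 with MS172 and 0.83 with PK9328.

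Enzymes of early and late steps of the pathway rose. HMGCS1, which makes the precursor HMG-CoA, stood at 25.9, 26.1 and 23.6 CPM with DMSO, 53.2, 56.3 and 55.3 with MS172 and 42.0, 36.0 and 39.0 with PK9328. Treated libraries were all higher, MS172 most, and the rise was 0.87 ± 0.05 (edgeR adjusted p = 1.9e-13). The isomerase IDI1 had 0.97 and 0.56, and the demethylation enzyme MSMO1 1.35 and 0.71. DHCR7, an enzyme of the last steps, had 0.81 and 0.26. For CYP51A1, MVD and HSD17B7 the compounds were not called different, and the intervals of MS172 minus PK9328 were -0.02 to 0.19, -0.02 to 0.18 and -0.14 to 0.16.

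ABCA1, which exports cholesterol from cells, was the member that fell. It stood at 14.1, 15.3 and 13.2 CPM with DMSO, 10.2, 8.57 and 9.76 with MS172 and 11.9, 12.6 and 11.1 with PK9328. All treated libraries were lower, and the log2 fold change was -0.42 ± 0.08 (edgeR adjusted p = 3.6e-04). Of 20 fatty acid genes, 5 rose: FASN (0.65 with MS172, 0.09 with PK9328), SCD (0.37, 0.13), ACSL3 (0.31, 0.17), ME1 (0.15, 0.16) and LPIN1, a phosphatidate phosphatase (0.25, 0.49). LPIN1 was the one larger with PK9328, and ME1 did not pass with the covariate (adjusted p = 0.075).

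**Figure D2:**
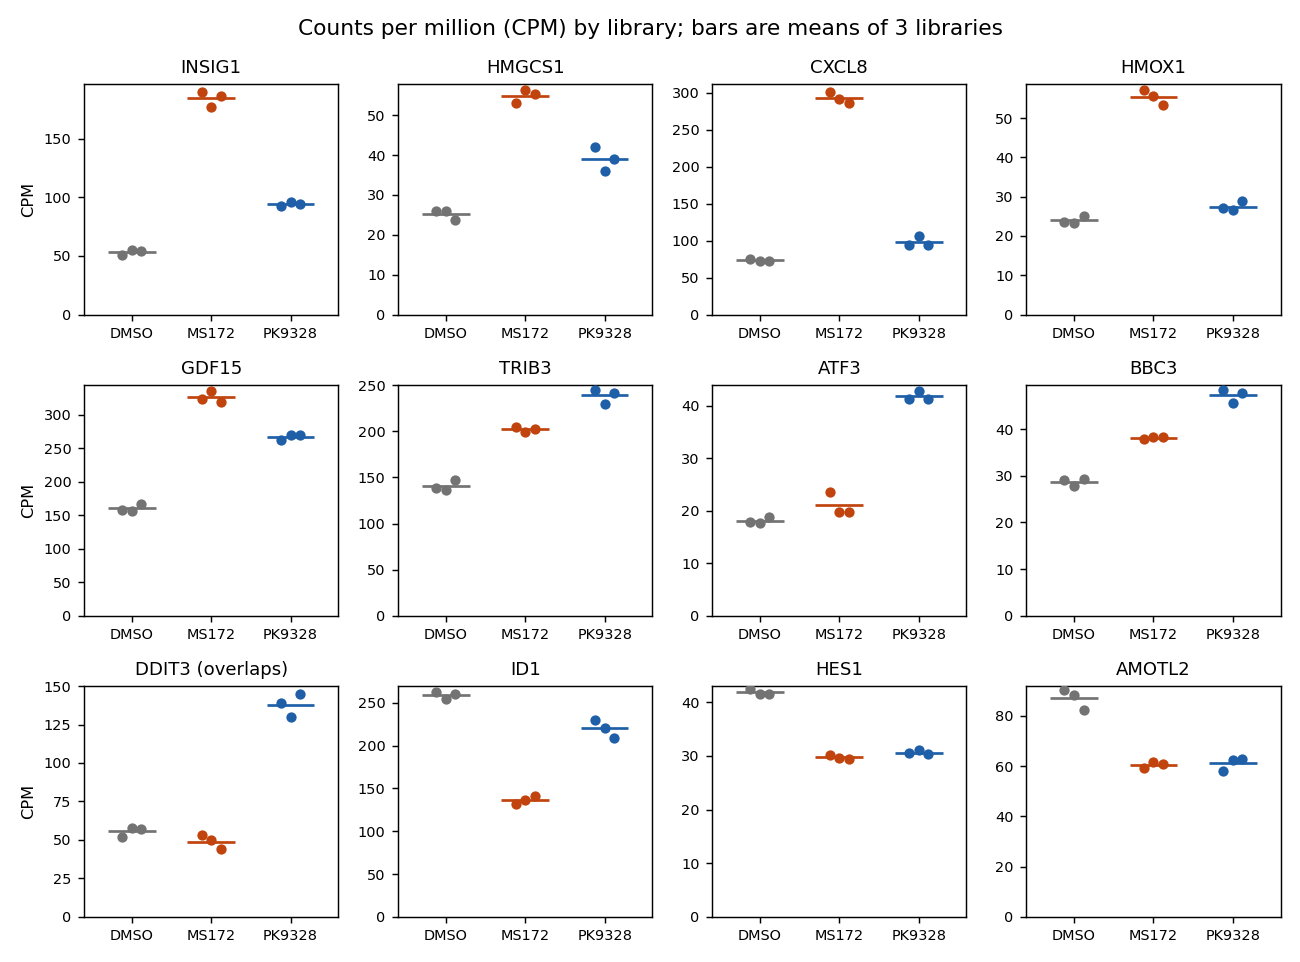
Each point is the CPM of a gene in a library, with the mean of 3 libraries as a bar and axes from 0. INSIG1, HMGCS1, CXCL8, HMOX1 and GDF15 stood highest with MS172, TRIB3, ATF3 and BBC3 highest with PK9328, and ID1, HES1 and AMOTL2 were lower with both, whereas DDIT3 overlapped DMSO with MS172 and is no member.

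Some inflammatory, oxidative stress and chaperone genes rose as members, 9 of 25, 7 of 28 and 4 of 24 of those tested. CXCL8, a chemokine for neutrophils, stood at 75.4, 73.0 and 72.8 CPM with DMSO, 301, 291 and 286 with MS172 and 93.5, 106 and 94.5 with PK9328. All groups were apart, PK9328 by a small step from DMSO. It changed by 1.99 and 0.41, and the difference of 1.58 (95% interval 1.49 to 1.66) had an edgeR adjusted p of 6.7e-23. Of 25 NF-kB, chemokine and cytokine genes, 9 rose as members, with a list median of 0.18. They included the feedback inhibitor NFKBIA (0.79, 0.06), the subunit RELB (0.64, 0.19) and the apoptosis inhibitor BIRC3 (0.81, 0.38). CXCL2, a chemokine of the same family as CXCL8, was larger with PK9328 (0.30, 0.58).

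Of 28 antioxidant genes under the factor NRF2, 7 rose as members, 6 of them further with MS172, and the median of the list was 0.11. HMOX1, heme oxygenase, stood at 23.6, 23.4 and 25.1 CPM with DMSO, 57.1, 55.7 and 53.4 with MS172 and 26.5 to 29 with PK9328. PK9328 lay just above DMSO and MS172 far above. TXNRD1, thioredoxin reductase, had 1.02 and 0.36, OSGIN1, an oxidative stress growth inhibitor, 0.84 and 0.37, and SQSTM1, an autophagy receptor, 0.81 and 0.16. Over all 28 genes the median was 0.25 with MS172 and 0.00 with PK9328. Among 24 heat shock genes, DNAJB1, DNAJB6, HSPA13 and CHORDC1 rose, and DNAJB6 did not pass with the covariate (adjusted p = 0.15). The median of the 24 was 0.22 with MS172 and -0.09 with PK9328. HSPA13, which encodes an Hsp70-like protein, had nearly even values of 0.42 and 0.36.

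Of 17 metallothionein and zinc transport genes tested, 2 rose and 1 fell as members. The pooled contrast called 8 of them higher and 1 lower. Genes of a zinc exporter and a zinc importer moved in opposite directions, but importer genes did not all fall. SLC30A1, which exports zinc, stood at 47.6, 52.2 and 45.3 CPM with DMSO, 93.8, 88.5 and 91.2 with MS172 and 59.4, 62.1 and 59.0 with PK9328. The importer SLC39A10 stood at 166, 174 and 158 CPM, then 97.1, 95.7 and 95.4, then 144, 154 and 144 in the same order. Each was separated from DMSO with both compounds and lay farther away with MS172. Their log2 fold changes were 0.61 ± 0.04 and -0.48 ± 0.03 (edgeR adjusted p = 7.9e-12 and 7.1e-12). SLC39A14, another importer, rose by 0.20 ± 0.04, further with PK9328 (0.26) than with MS172 (0.14). No metallothionein gene was a member.

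Early response genes were mixed in direction. Of 29 tested, 12 rose and 3 fell as members. MAFF, a small Maf factor, rose by 0.60 and 0.43, and JUND, an AP-1 subunit, by 0.74 and 0.16. EGR3, BHLHE40, JUNB, KLF6, SRF, ZFP36 and ZFP36L1 rose by 0.13 to 0.39 in the pooled contrast, and IER3 by 0.41. SRF and ZFP36 did not pass with the covariate (adjusted p = 0.31 and 0.39). KLF2, IER2 and KLF10 fell. NR4A3 also rose, but at 0.233 to 0.285 CPM with DMSO it rests on few reads, and its adjusted p with the covariate was 0.15.

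The EGF family ligands AREG, EREG and HBEGF rose, and the other 6 tested genes of the family list were no members. HBEGF stood at 19.7, 21.8 and 20.4 CPM with DMSO, 40.7, 39.7 and 39.5 with MS172 and 27.7, 26.8 and 28.1 with PK9328. All treated libraries were higher, and it rose by 0.68 ± 0.05 (edgeR adjusted p = 3.3e-11). EREG rose evenly, by 0.35 and 0.38, with an interval for the difference of -0.19 to 0.12, and with the fragment length covariate its adjusted p was 0.065. Of 20 MAPK feedback genes, 6 rose, among them the phosphatase genes DUSP1, DUSP14 and DUSP16, SPRED2, and ETV5, at 0.21 with each compound. DUSP14 did not pass with the covariate (adjusted p = 0.47). Of 31 hypoxia and glycolysis genes, 5 rose. HK2, a hexokinase, rose by 0.60 and 0.48, and the glucose transporter genes SLC2A1 and SLC2A3 by 0.20 and 0.22 in the pooled contrast.

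Part of the p53 target list belonged to the shared response. Of 48 genes, 7 rose as members, beside 2.86% of all genes tested. They were CDKN1A, BBC3, CCNG2, BTG1, TNFRSF10B, GDF15 and ABHD4. The pooled contrast called 13 of the 48 higher and 2 lower, beside 6.87% and 5.21% of all genes tested. The median of the list was 0.02, near that of all genes tested. GDF15, TNFRSF10B and BBC3 are also known targets of the stress factors above. CDKN1A, the cell cycle inhibitor p21, stood at 15.5, 12.8 and 15.9 CPM with DMSO, 19.1, 21.7 and 20.1 with MS172 and 21.5, 24.6 and 24.6 with PK9328. Its treated libraries were all higher, and it rose by 0.57 ± 0.07 (edgeR adjusted p = 1.3e-06). MDM2, the p53 ubiquitin ligase gene, was no member, at 4.92, 3.30 and 4.77 CPM with DMSO and 3.08 to 4.63 in treated libraries.

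BBC3, which encodes the pro-apoptotic protein PUMA, rose, and the estimated share of its top transcript was lower in treated libraries. It stood at 29.1, 27.8 and 29.3 CPM with DMSO, 37.9, 38.3 and 38.3 with MS172 and 48.5, 45.6 and 47.7 with PK9328. The groups were apart, and it rose by 0.56 ± 0.05 (edgeR adjusted p = 1.8e-10). The transcript BBC3-203 held 74.5% of its estimated reads with DMSO, 35.5% with MS172 and 52.6% with PK9328. This transcript led in 5 of the 9 libraries. Its share was 65.5% to 84.2% in DMSO libraries and 22.6% to 61.9% in treated ones, without overlap. Shares between transcripts of a gene are estimates that the quantification made from shared reads. Of 596 rising or falling members of at least 5 CPM, 526 had the same top transcript in all 9 libraries. In 13 (2.18%) the share of the top transcript did not overlap between treated and DMSO libraries. BBC3 was the only 1 of these in which it moved by more than 10 percentage points. The same count was not made over all genes tested, so whether 13 is more than the order of libraries alone would give was not tested. Large shifts also occurred with overlap. Treated minus DMSO, KLF11 moved by -36.6 percentage points, FAM219A by -22.0, EIF2AK3 by -21.6 and RELB by 23.4, beside -30.5 for BBC3. The 13 are thus a description, BBC3 is named for its size among them, and no change in transcript use is concluded from its share.

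Genes of the tubulins, the subunits of microtubules, were lower with both compounds. This list was drawn up after values had been seen, so its count is a description. Of 17 tubulin genes tested, 9 were lower members and fell (TUBA1A, TUBA1B, TUBA1C, TUBB, TUBB2A, TUBB2B, TUBB4A, TUBB4B and TUBB6), and none rose. TUBB3 had an adjusted p of 0.015 at -0.13, but its libraries overlapped. The list's median was -0.22. In per-length units the most abundant with DMSO were TUBB (1140 TPM), TUBA1B (1070 TPM) and TUBA1C (505 TPM).

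TUBA1B stood at 1250, 1160 and 1220 CPM with DMSO, 801, 839 and 799 with MS172 and 993, 1000 and 1030 with PK9328. All treated libraries were lower, and MS172 was lowest. Its log2 fold change was -0.42 ± 0.03 (edgeR adjusted p = 4.6e-11), with -0.58 and -0.27. TUBB2A had -0.63 and -0.21, a difference of -0.42 (95% interval -0.51 to -0.34). TUBB stood at 2400, 2170 and 2320 CPM with DMSO, 1750, 1900 and 1830 with MS172 and 1890, 1860 and 1920 with PK9328. The compounds overlapped each other there but not DMSO, with -0.33 and -0.28 and an interval for the difference of -0.13 to 0.04.

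The fall was larger with MS172 in 7 of the 9, all but TUBB and TUBB4A. All 9 kept an adjusted p under 0.05 with the fragment length covariate, and 7 also separated in all 3 scales, TUBA1A and TUBB2B being the exceptions. The gamma tubulins TUBG1 and TUBG2, which seed microtubules, and the centriolar tubulins TUBD1 and TUBE1 were not called, at -0.05, -0.01, 0.12 and 0.11. Tubulin genes are close copies of each other, and reads they share had been divided by the quantification, so the split between single genes is less certain than their joint direction.

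**Figure D3:**
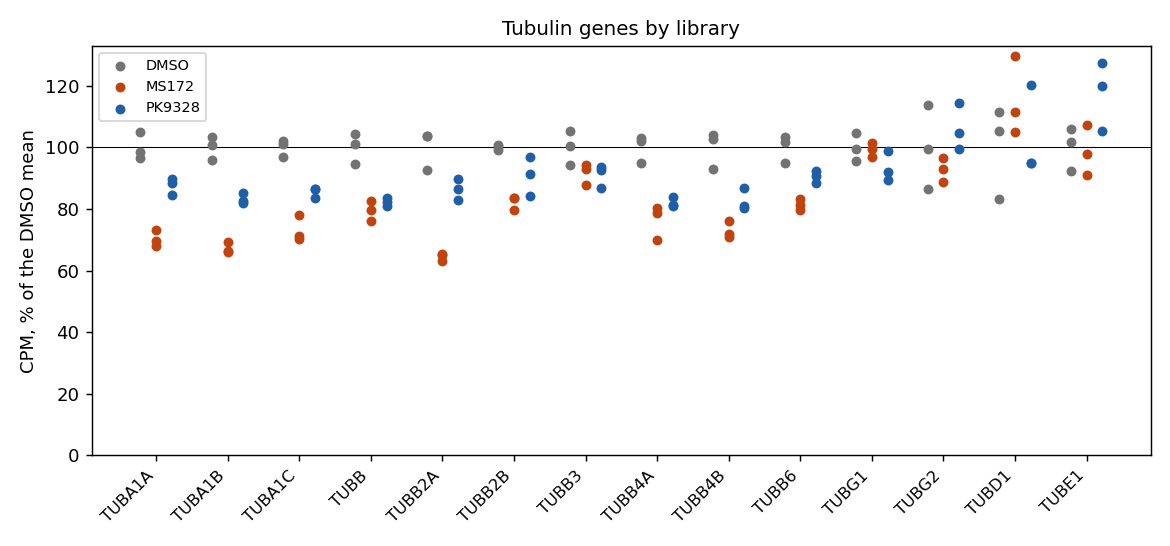
Each point is a library's CPM for a tubulin gene of at least 5 CPM, as a percent of that gene's DMSO mean, by group. The alpha and beta tubulin genes except TUBB3 lie below their DMSO libraries in all 6 treated libraries, mostly lowest with MS172, whereas TUBG1, TUBG2, TUBD1 and TUBE1 overlap.

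Transcription factor and signalling genes led the other falls. ID1, an inhibitor of helix-loop-helix factors that BMP signals raise, stood at 263, 254 and 260 CPM with DMSO, 132, 137 and 141 with MS172 and 230, 221 and 209 with PK9328. The groups were apart, MS172 lowest, and the log2 fold change was -0.58 ± 0.03 (edgeR adjusted p = 3.5e-14). ID3, its relative, had -0.96 with MS172 and -0.07 with PK9328, whose libraries overlapped DMSO, and was no member. In a list of 15 BMP and SMAD genes, drawn up after values were seen, 3 fell as members (ID1, SMAD3 and BMPR2), and the median was -0.11. The last 2 changed little, by -0.14 and -0.19, and had an adjusted p over 0.05 with the covariate (0.086 and 0.25).

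HES1, a repressor and classic Notch target, stood at 42.4, 41.5 and 41.6 CPM with DMSO, 30.2, 29.7 and 29.4 with MS172 and 30.5, 31.1 and 30.3 with PK9328. The libraries of both compounds lay close together, well below DMSO. The log2 fold change was -0.47 ± 0.04 (edgeR adjusted p = 3.6e-09), and the interval of MS172 minus PK9328 was -0.15 to 0.07. NRARP, a feedback inhibitor of Notch, had -0.60 and -0.34, and LFNG, which modifies Notch receptors, -0.47 and -0.41. Among 19 Notch pathway genes, a list also drawn up after values were seen, these 3 fell and NOTCH4 rose by 0.20 (with the covariate, adjusted p = 0.46).

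AMOTL2, a junction protein and a target of YAP, was the most even of the 12 largest falls listed above. It stood at 90.3, 88.4 and 82.3 CPM with DMSO, 59.3, 61.6 and 60.9 with MS172 and 57.9, 62.6 and 63.0 with PK9328. The treated libraries of both compounds overlapped each other and lay far below DMSO. The log2 fold change was -0.52 ± 0.04 (edgeR adjusted p = 4.5e-11), with an interval for the difference of -0.11 to 0.08. Of 25 YAP and TEAD targets, 4 fell (AMOTL2, LATS2, ARHGEF17 and MYOF), none was a higher member, and the median was -0.07. The 3 others had -0.12 to -0.27 and an adjusted p over 0.05 with the covariate (0.078 to 0.23).

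KLF2, a zinc finger factor, stood at 94.0, 91.0 and 90.0 CPM with DMSO, 49.5, 59.0 and 60.4 with MS172 and 70.4, 63.7 and 59.2 with PK9328. All treated libraries were lower and the compounds overlapped, with -0.70 and -0.51. The pooled log2 fold change was -0.61 ± 0.06 (edgeR adjusted p = 2.3e-05). ELF3, an epithelial ETS factor, had -0.94 and -0.27 at 10.3 to 11 CPM with DMSO. CAVIN2, a caveolar protein gene, had -0.42 and -0.48, and TNFRSF1B, a TNF receptor gene, -0.52 and -0.40. C4orf48 (-0.61 ± 0.16) and NDUFAF8 (-0.59 ± 0.10), both short genes, had wider errors than the rest. C4orf48 also fell to -0.20 with the covariate (adjusted p = 0.55).

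Smaller groups of falling members belonged to interferon and replication lists. Of 30 interferon and antigen presentation genes, 3 fell, namely IFIT1, IFIT2 and OASL, the last with an adjusted p of 0.05 with the covariate. IFIT2 stood at 39.4, 39.2 and 41.2 CPM with DMSO, 31.4, 32.0 and 33.1 with MS172 and 29.8, 31.5 and 31.0 with PK9328. The compounds overlapped below DMSO, and it fell by 0.34 ± 0.05 (edgeR adjusted p = 2.4e-06). Of 38 G1/S and replication genes, MCM2, MCM4, GINS4 and E2F2 fell, and none was a higher member. MCM2 had -0.07 with MS172 and -0.27 with PK9328, and GINS4 -0.31 and -0.08, so neither compound was larger throughout. With the covariate, MCM4 and E2F2 did not pass (adjusted p = 0.26 and 0.22). In 36 G2/M genes, BUB1B and MKI67 fell, whereas CKS2, which binds cyclin-dependent kinases, rose. CKS2 libraries held 100 to 112 CPM with DMSO, 228 to 245 with MS172 and 124 to 131 with PK9328, so no 2 groups overlapped. With the covariate, BUB1B and MKI67 did not pass (adjusted p = 0.13 and 0.11).

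**Figure D4:**
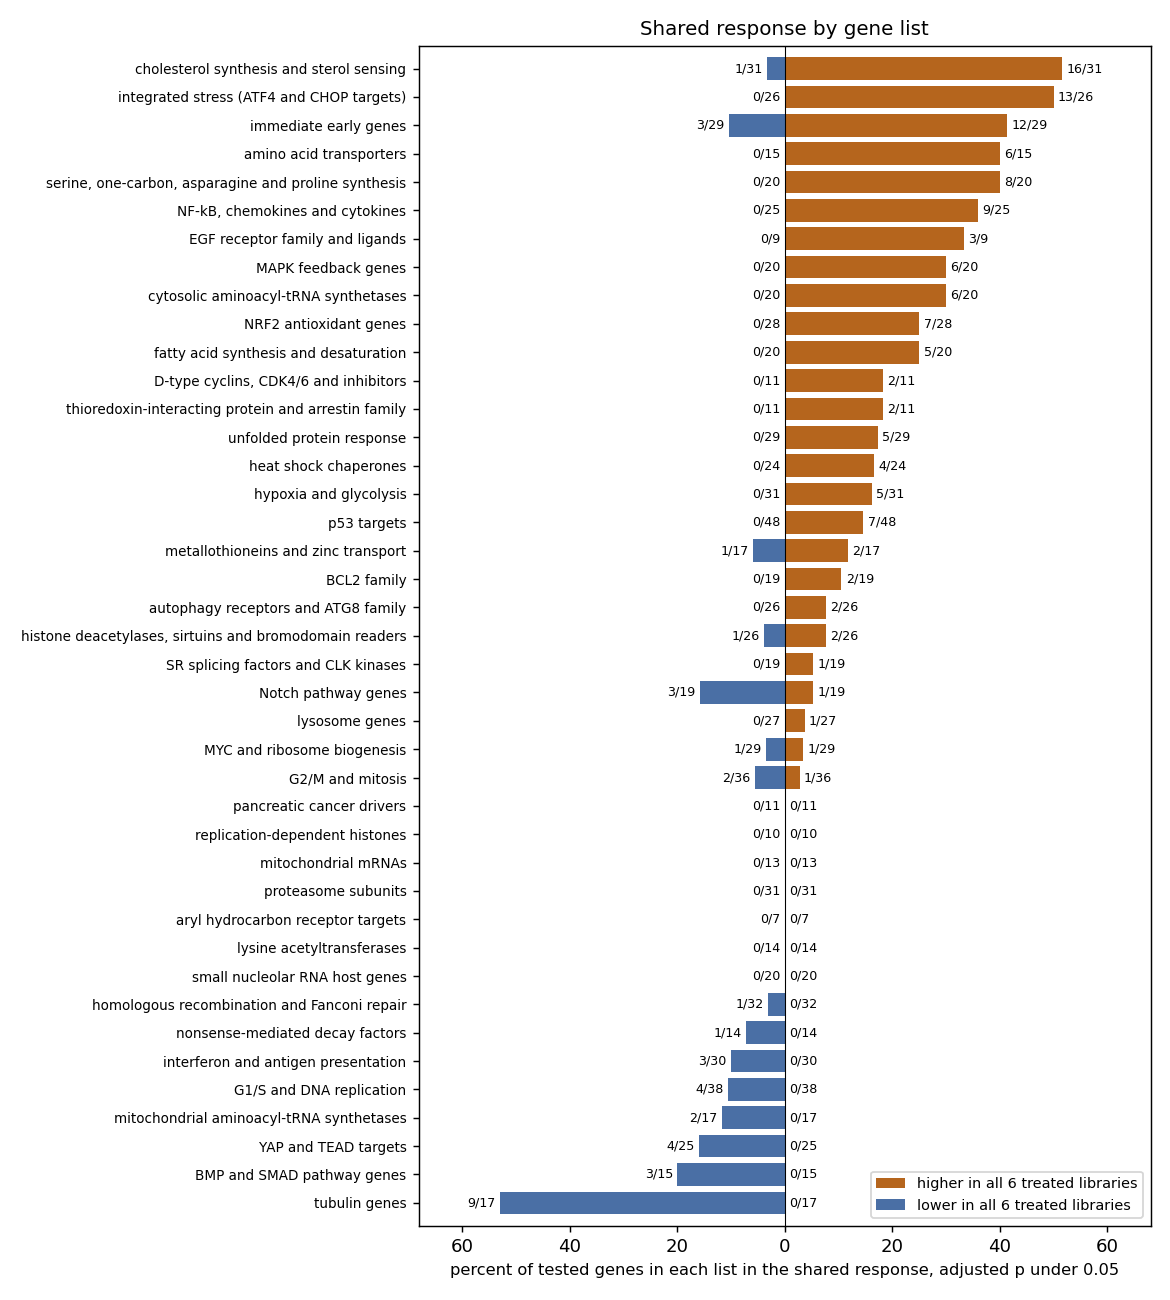
Bars give the percent of each list's tested genes that were members with an adjusted p under 0.05, higher to the right and lower to the left, with counts at the bar ends. Cholesterol and integrated stress genes reach farthest right (16 of 31 and 13 of 26) and tubulins farthest left (9 of 17); the tubulin, Notch and BMP lists were drawn up after values had been seen.

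No gene of the lists of lysine acetyltransferases (14 tested), proteasome subunits (31), mitochondrial mRNAs (13), replication-dependent histones (10), small nucleolar RNA host genes (20), aryl hydrocarbon receptor targets (7) or pancreatic cancer drivers (11) was a member. Members made up 6.67% of all genes tested, so their absence from lists this short says little about those lists. The pooled contrast called 5 of the 20 small nucleolar RNA host genes higher and 3 lower. Their medians were -0.15 with MS172 and 0.38 with PK9328. SNHG30, a member named below, was not on that list. EP300 and CREBBP, both acetyltransferase genes, stood at 0.12 and 0.06 in the pooled contrast, MYC at 0.03 and EGR1 at -0.03. EGR1 moved apart between the compounds, at -0.25 with MS172 and 0.20 with PK9328. TXNIP, a glucose-responsive arrestin gene, did so more widely, at 1.39 and -0.25, and its pooled call was therefore not shared. Of its list, MNT and MXD1, both repressors that pair with MAX, rose as members by 0.48 and 0.47, MXD1 with an adjusted p of 0.073 with the covariate.

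The stricter question, which genes stood apart when both compounds were treated as replicates of a single treated group, left 63 genes. In that fit the difference between compounds counts as error, and 51 genes were higher and 12 lower at an adjusted p under 0.05 (edgeR). All 63 were members. The smallest adjusted p belonged to AMOTL2 and HES1, followed by GDF15. Among those that rose were the stress genes TRIB3, ATF5, CEBPB, SLC7A5, SLC7A1, PSAT1, GARS1 and GOT1, the sterol genes CYP51A1, HMGCS1, IDI1, MVK, MVD and HSD17B7, and CDKN1A, BBC3, TNFRSF10B and BTG1. Among those that fell were KLF2, CAVIN2, TNFRSF1B, IFIT1, IFIT2 and TUBB4A. INSIG1 and CXCL8 were not among them.

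Members at either end of the difference test mark the range. ZFP36L1, which speeds mRNA decay, had 0.19 and 0.18, and SPC24, a kinetochore gene, -0.28 with both, with an interval for the difference of -0.16 to 0.16. PFKM, YWHAQ and ARFGAP1 were as even, with differences of 0.00 to 2 decimals. SPC24 and PFKM did not pass with the covariate (adjusted p = 0.096 and 0.23), and YWHAQ and ARFGAP1 did not pass without it. At the other end, RIPK4, a kinase gene, had -0.64 and -0.13, and IER2 -0.41 and -0.06. Among long noncoding RNAs of at least 5 CPM, SUNO1 fell by 0.54 ± 0.10 and OIP5-AS1 rose by 0.13 ± 0.04, whereas FOXD2-AS1, LINC00205, PTOV1-AS1 and SNHG30 were members that did not pass the test. With the covariate, SUNO1 and OIP5-AS1 had adjusted p-values of 0.088 and 0.34.

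Other promoter letters were counted in the same way. The sterol element TCACNCCAC was found in 10 of 321 rising members (3.12%) beside 1.08% of tested coding genes. These were not the cholesterol genes described above. None of the 12 higher members of the cholesterol list with an entry held it, and 1 of the list's 24 tested genes with an entry did. The antioxidant element TGACNNNGC was found in 19.3% of rising members, beside 15.0% of tested coding genes. The ETS letters CCGGAAG were found in 20.2% and 20.1%. Among all 301 lower coding members with an entry, of 369, the shares were 1.33%, 11% and 13.3% in the same order. Among all 409 higher ones, of 495, they were 2.44%, 19.1% and 19.8%. The metal element, TGCACNC or TGCGCNC, was found in 36.4% of rising members, beside 39.5% of tested coding genes. Its shares were 39.9% among all lower and 38.1% among all higher coding members with an entry. A promoter entry was found for 9821 of 12135 tested coding genes. These shares are descriptions of the window and say nothing of the factors.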

How the data were processed

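RNA of 9 libraries, 3 each for DMSO, MS172 and PK9328, had been poly(A)-selected and sequenced. The deposited tables give, per the file headers, the estimated count of reads and the TPM of 197653 transcripts, which the authors had made from the reads by a program not given in the sources used here. FastQC 0.11.8 and hg38 are named in the submitters' processing notes. Estimated counts of the 193348 transcripts found in GENCODE 29 were summed for 56865 genes and rounded. Unmatched transcripts held 0.356% to 0.382% of a library's reads. Gene coordinates are those of GENCODE 29, from 1. Reads shared by near-identical, overlapping or antisense genes had been divided in the deposited values, which leaves such genes uncertain one by one.

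All 9 libraries entered a single fit with edgeR 4.0.16 in R 4.3.3 (TMM, filterByExpr by group, robust quasi-likelihood, 6 residual degrees of freedom). A total of 13914 genes passed the filter. Contrasts were the mean of both compounds against DMSO and MS172 against PK9328, with 95% intervals and a threshold of 0.05. The script was tested on simulated data. Fragment length was read from the gap between length and effective length in transcripts of 3000 bases or more.

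Members, gene lists and tests were chosen with earlier results of these data known. The tubulin, Notch and BMP lists and the separation in 3 scales were added after values were seen. Named genes were, among coding members of at least 5 CPM, the 12 largest rises and falls that passed, and the 3 nearest genes on each side of the separation. The 6 largest and smallest p-values of the compound difference in each direction, 4 long noncoding RNAs in each direction and up to 4 members per list by p were added, with 22 genes taken whatever their result. A few genes named by these rules are left out of the text. Further list members are examples chosen after their values were seen. Alternatives were DESeq2 1.42.0, limma-voom (limma 3.58.1), RLE size factors, other filters, the replicate number as a block, counts from length-scaled TPM, a single treated group, fragment length as a covariate, other scales and each library left out. No set test was run.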

Additional observations from a re-analysis of the deposited data

How the results depend on the processing

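With counts rebuilt from length-scaled TPM, the pooled contrast called 411 higher and 198 lower genes (956 and 725 as reported), and 222 and 106 members passed (398 and 237 as reported). With both compounds as a single treated group, 51 higher and 12 lower genes passed, and the same 51 and 12 counts held among members. With the fragment length covariate, 411 and 206 genes passed, 222 and 72 of them members, and 93 and 8 members were larger with MS172 and PK9328 (218 and 60 as reported). Separated in TPM, 225 genes were higher, and 188 higher and 126 lower members passed. Separated in all 3 scales, 147 were higher and 114 lower. The cause of these shifts was not tested, except that a single treated group counts the difference between the compounds as error. DESeq2 called 910 higher and 530 lower genes.

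Leaving out each library in turn, the pooled contrast called 683 to 988 higher and 383 to 760 lower genes, and 382 to 464 and 205 to 288 members passed. The separation then held for 581 to 818 higher and 478 to 778 lower genes, since the rule then asks for fewer libraries. Members larger with MS172 were 178 to 345, and with PK9328 52 to 117. Counts moved by more than 1.5 times only without a DMSO library. Without DMSO library 1, 743 genes were lower and 345 members larger with MS172. Without DMSO library 2, 818 were higher and 718 lower, the pooled contrast called 383 lower, and 117 members were larger with PK9328. Without DMSO library 3, 810 were higher and 778 lower, and 334 and 100 members were larger with MS172 and PK9328.

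Nothing in the labels says what same-numbered libraries share beyond the number. Residual correlations between groups ran from -0.22 to 0.18 for same-numbered and from -0.27 to 0.23 for differently numbered libraries. They cannot settle a pairing, because deviations from a mean of 3 libraries cancel within each group. With the replicate number as a block, 809 higher and 606 lower genes passed, and 370 and 207 members.

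Of 127 named members that passed, 123 did so with DESeq2, 125 with limma-voom, 127 with RLE size factors, 93 with length-scaled TPM, 92 with the covariate and 113 to 125 with a library left out. Signs turned only for genes that did not pass. Those reported here were EGR1 (0.01) and TUBD1 (-0.15) with the covariate, HERC1 (0.27) and MTF2 (-0.01) with length-scaled TPM, and TUBG2 with limma-voom (0.00) and between -0.11 and 0.09 with a library left out (0.00 without MS172 library 1, 0.09 without DMSO library 3 and 0.01 without PK9328 library 2).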
